A study of Mus musculus with 196 samples.

Results

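The genes described here are 29 genes of cholesterol and fatty acid synthesis, taken by name from the deposited expression table, and all 29 were found among its 25706 endogenous genes. They comprise 7 genes of the mevalonate pathway, 10 genes of the route from squalene to cholesterol, 5 genes that regulate the pathway, the sterol carrier Stard4, and 6 genes of fatty acid synthesis and desaturation. They were measured in primordial germ cell-like cells (PGCLCs), germ cells made in culture from mouse embryonic stem cells, in a study of the transcriptional regulator ZGLP1 and the fate of female germ cells.

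All PGCLCs were of a mixed 129S1 and C57BL/6 strain and carried the reporters Prdm1-mVenus and Dppa3-ECFP. H18 carried no further change. OE_A2 held a piggyBac transgene that expresses Zglp1 with mCherry from a tetO promoter when doxycycline (Dox) is added, together with rtTA driven by EF1a. OESko_A11 held the same transgenes in cells that lack Stra8, a gene needed for meiotic entry. Zko_E5 and Zko_G10 were Zglp1-/- clones, and Sko_B6 and Sko_F6 were Stra8-/- clones. Each line is 1 clone, and no line without the transgene received Dox, so effects of the drug and of the transgene cannot be told apart.

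Cells were sorted by reporter, expanded on m220 feeder cells and collected up to day 9 of culture. Treatments were none (control), BMP2, retinoic acid (RA), both (B2RA), Dox, Dox with RA (DoxRA), medium without serum (SerumMinus), that medium with a compound labelled WIN (SerumMinusWIN), a compound labelled BMS, and Dox in each of the last 2 media (SerumMinusWINDox and BMSDox). Groups held 2 libraries, apart from 1 per day for SerumMinus, 1 for H18 with B2RA at day 4 and 1 for each embryonic stage. Germ cells of E9.5, E14.5 and E15.5 embryos came from crosses of ICR females and carried Dppa3-EGFP at E9.5 and Ddx4-RFP at both later stages.

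Cells build cholesterol from acetyl-CoA through mevalonate, isoprenoid phosphates, squalene and lanosterol, and build fatty acids from acetyl-CoA through malonyl-CoA. Both routes are known targets of the SREBP transcription factors, encoded by Srebf1 and Srebf2. When sterols are scarce, the escort protein SCAP carries SREBPs from the endoplasmic reticulum to the Golgi, where proteases release the active factor. INSIG proteins hold SCAP and SREBP in the endoplasmic reticulum when sterols are plentiful, so genes of the pathway often move together.

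The 194 libraries held 877040 to 5196593 reads, with a median of 2669407, and 1 read was worth 0.192 to 1.14 RPM (reads scaled to the total of the library). Levels are given in RPM, and changes are differences of log2(RPM + 1), which understate the change of genes with low levels. Genes with 10 RPM or more in 2 or more libraries of a comparison were tested. To pass the threshold, a gene needed an adjusted p below 0.05 and a log2 change of 1 or more in size. The labels do not say whether the 2 libraries of a group came from separate cultures. P-values therefore measure only the spread between libraries of a group, which may be technical. That spread was estimated for each gene over all PGCLC groups together. A pair of libraries that disagree thus carries the same SE as a pair that agree. Every one of the 93 pairs of libraries within a group varied beyond what counting alone gives, with chi-square values of 1.62 to 59.9 for each degree of freedom. At day 9 the transgene reached 925 to 11750 RPM in the 10 libraries with Dox and 43.5 to 406 RPM in the 9 libraries of the same lines without it. Reads of Zglp1 (1.06 to 32.7 RPM in 12 Zko libraries) and of Stra8 (52.7 to 688 RPM in 4 Sko libraries with B2RA and 352 to 378 RPM in 2 OESko_A11 libraries with DoxRA, against 1155 to 1519 RPM in OE_A2 with DoxRA) remained, and such 3′ reads do not check a deletion elsewhere in the gene. At day 9 H18 held Zglp1 at 48.85 to 62.26 RPM in 4 libraries. Stra8 was at 657.5 to 804.9 RPM in the 2 H18 libraries with B2RA, which the Sko range with B2RA overlapped. The germ cell marker Dazl was present in all 43 PGCLC libraries of day 9, at 119 to 2322 RPM. Of the 8 germ cell markers listed it had the highest minimum, and Ddx4 ranged from 31.2 to 813 RPM. Others came close to 0, with Dppa3 at 2.39 to 1414 RPM, Pou5f1 at 0.797 to 401.5 RPM and Nanos3 at 0.289 to 24.6 RPM. With DoxRA in OE_A2 at day 9, 5 of 7 tested were lower than in controls and 2 higher (22.5% and 25.6% of all genes tested). Adding RA to BMP2 in H18 lowered 5 of 7 and raised 0 (6.98% and 9.05% of all genes tested). Their part was not tested. Markers of other cells were present as well. Of 20 stromal genes 12 were above 0 in every one of these libraries, among them Fn1 (168 to 757 RPM), Sparc (26.0 to 752 RPM) and Cald1 (27.7 to 136 RPM), while Lum and Thy1 were at 0 in 26 and 12. Of 10 gonadal soma genes Amh, Nr5a1 and Foxl2 were at 0 in 43, 37 and 31 libraries, whereas Wnt4 and Star were at 0 in 1 each and Gata4 reached 105 RPM.

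Induction of the transgene was followed at day 9 by lower levels of much of the pathway. With Dox in OE_A2, 13 of the 29 genes fell and 1 rose, where 9.38% of all 9372 genes tested fell and 13.4% rose. The median change of the 29 genes was -0.85 on the log2 scale, beside 0.06 for all genes tested. By role, 4 of 7 mevalonate genes, 3 of 10 sterol genes, 2 of 5 regulators and 4 of 6 fatty acid genes fell.

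Among the regulators, Srebf2, the SREBP gene known chiefly for cholesterol synthesis (chr15:82147181-82205379 in GRCm38, as are the other positions below), stood at 89.5 and 114 RPM in the 2 control libraries and 22.8 and 29.1 RPM with Dox. Its change was -1.93 (SE 0.27, adjusted p = 7.62e-09), and the libraries with Dox lay below both controls. Srebf1, known chiefly for fatty acid synthesis, went from 48.2 and 66.1 RPM to 23.2 and 29.7 RPM, a change of -1.07 (SE 0.41, adjusted p = 0.0323). Insig1, a sterol-responsive inhibitor of SREBP transport, measured 25.8 and 38.8 RPM in controls and 12.5 and 17.6 RPM with Dox, and its change of -1.05 (SE 0.67, adjusted p = 0.224) did not pass.

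In the mevalonate pathway Hmgcs1, which makes HMG-CoA, measured 179 and 197 RPM in controls and 91.1 and 88.6 RPM with Dox, a change of -1.06 (SE 0.39, adjusted p = 0.0246). Fdps, which makes farnesyl diphosphate, was at 256 and 213 RPM and then 96.7 and 107 RPM, changing by -1.19 (SE 0.23, adjusted p = 1.33e-05). The groups of neither gene overlapped. Mvd (mevalonate diphosphate decarboxylase, -1.17) and Pmvk (phosphomevalonate kinase, -1.04) fell by similar amounts, whereas Mvk, the kinase before Pmvk, changed by -0.08 (SE 0.36, adjusted p = 0.88). Idi1, which isomerises isopentenyl diphosphate, changed by -0.14 and Acat2, which joins 2 acetyl-CoA, by 0.22, and neither passed.

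Of the sterol genes, Fdft1, which makes squalene, was at 160 and 175 RPM in controls and 56.3 and 73.7 RPM with Dox, a change of -1.36 (SE 0.22, adjusted p = 6.48e-07). Cyp51, the lanosterol demethylase, was at 60.6 and 68.6 RPM and 24.5 and 26.4 RPM, a change of -1.31 (SE 0.33, adjusted p = 0.00111). Ebp, the sterol isomerase, fell by 1.06 on the log2 scale. All 10 sterol genes had a change below 0, as did 47% of all genes tested, and the other 7 did not pass.

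The fatty acid genes held the 2 largest falls of the 29 and the single rise. Scd1, a stearoyl-CoA desaturase that puts the first double bond into fatty acids, measured 29.6 and 11.1 RPM in controls and 3.44 and 1.82 RPM with Dox, a change of -2.44 (SE 0.67, adjusted p = 0.0025). Its relative Scd2 measured 431 and 252 RPM and 72.2 and 91.6 RPM, a change of -2.00 (SE 0.41, adjusted p = 6.54e-05). The 2 controls of each gene lay apart, and no library with Dox reached either of them. Elovl6, which lengthens palmitate, was at 81.9 and 115 RPM and 27.9 and 30.9 RPM, a change of -1.69 (SE 0.30, adjusted p = 5.19e-06), and fatty acid synthase, Fasn, fell by 1.26. Acaca, the acetyl-CoA carboxylase that makes malonyl-CoA, went the other way, from 59.9 and 57.5 RPM to 132 and 115 RPM, a change of 1.05 (SE 0.24, adjusted p = 0.000251).

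Without control library 2 the genes past the threshold numbered 8 in place of 14, and 10 without any other single library of this comparison. The summed level of 20 stromal markers was 964 and 944 RPM in the controls and 580.3 and 563 RPM with Dox, and 2 of the 7 that could be tested fell. Their part in the result was not tested. In bulk samples, fewer cells of a type and less RNA per cell cannot be told apart.

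**Figure D1:**
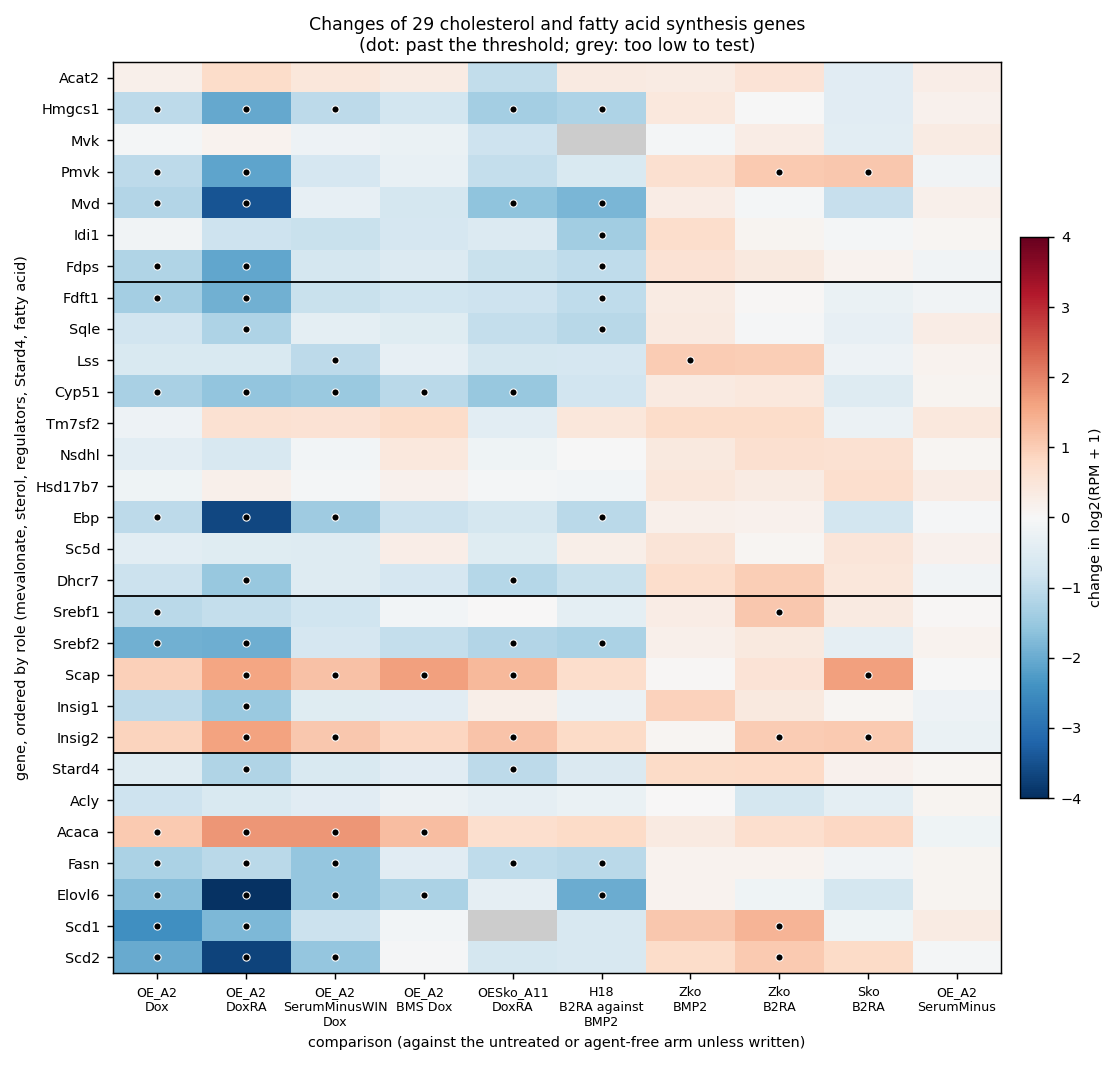
Changes of the 29 genes (rows, by role) in 10 comparisons (columns), with colour for the change in log2(RPM + 1) from blue (lower) to red (higher), a dot where the threshold was passed and grey where levels were too low to test. With DoxRA in OE_A2 16 genes are lower and Acaca, Insig2 and Scap higher, while the column for serum removal holds no dot.

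With Dox and RA together, more of the genes passed the threshold. At day 9, 16 of the 29 genes were lower than in OE_A2 controls and 3 were higher, where 22.5% of 9517 genes tested were lower and 25.6% higher. The median change of the 29 genes was -1.20, beside 0.11 for all genes. Controls are the same libraries as for Dox alone, so the 2 results are not independent.

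Elovl6 (chr3:129532355-129638495) had the largest fall, with 81.9 and 115 RPM in controls, 2.89 and 9.57 RPM with DoxRA and a change of -3.94 (SE 0.30, adjusted p = 1.83e-21). Scd2 (chr19:44293674-44306864) was at 9.82 and 59 RPM against 431 and 252 RPM, a change of -3.70 (SE 0.41, adjusted p = 4.9e-13). Ebp (chrX:8185329-8193512) was at 1.44 and 0 RPM against 18.6 and 18.7 RPM, and Mvd (chr8:122433601-122443422) at 2.02 and 0.797 RPM against 18.9 and 31.3 RPM. Both were thus close to the level of a few reads with DoxRA, where the size of a fold depends on the 1 RPM added, and their changes were -3.65 (SE 0.32, adjusted p = 1.85e-18) and -3.44 (SE 0.32, adjusted p = 7.85e-17).

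Also lower were Pmvk (-2.12), Fdps (-2.08), Hmgcs1 (-2.05), Fdft1 (-1.91), Cyp51 (-1.57), Sqle (-1.25) and Dhcr7 (-1.53), the last 2 being squalene epoxidase and the enzyme of the final reduction to cholesterol. Srebf2 changed by -1.96 (SE 0.27, adjusted p = 5.5e-10), and Srebf1 by -0.95 (SE 0.41, adjusted p = 0.0363), which lies just under the required size. Stard4, a carrier of cholesterol between membranes, measured 37.5 and 37 RPM in controls and 14.7 and 16.7 RPM with DoxRA, a change of -1.20 (SE 0.27, adjusted p = 6.47e-05). Fasn (-1.09) and Scd1 (-1.78) fell as well.

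The 2 libraries with DoxRA disagreed for several of these genes. Insig1 measured 32.1 and 3.19 RPM in them against 25.8 and 38.8 RPM in controls, so its groups overlapped, and its change of -1.47 (SE 0.67, adjusted p = 0.0475) became 0.02 without DoxRA library 2 and did not pass by edgeR (-0.75). Scd1 overlapped too, with 1.16 and 13.6 RPM against 29.6 and 11.1 RPM. Scd2, Pmvk and Cyp51 were each lower in library 1 than in library 2, but below both controls in either. The summed stromal markers also differed between these libraries (445 and 1141 RPM, against 964 and 944 RPM in controls). Of 7 stromal markers tested 3 were lower and 1 higher than in controls, no gonadal soma marker had enough reads to test, and their part was not tested.

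The genes that rose were a carboxylase and 2 regulators. Acaca (chr11:84129672-84401651) was at 209.7 and 192 RPM against 59.9 and 57.5 RPM in controls, a change of 1.76 (SE 0.24, adjusted p = 3.9e-10). Scap (chr9:110333288-110384950), the escort of SREBPs, was at 169 and 157 RPM against 58.9 and 49.9 RPM, a change of 1.57 (SE 0.27, adjusted p = 2.27e-07). Insig2, a second SREBP-retaining protein, measured 66.1 and 125 RPM against 34.1 and 25.1 RPM, with a change of 1.60 (SE 0.32, adjusted p = 7.07e-06). For all 3 genes every library with DoxRA lay above both controls.

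Promoter sequences are shown for 5 of the genes that fell with DoxRA and for Scap, which rose, to let the windows be compared. RefSeq windows of 250 bases before and 50 after a gene's start (GRCm38.p6) were at hand for 23 of the 29 genes. The letters CCAAT, the core of the NF-Y binding motif, occurred on either strand in a window of 19 of these 23 genes (82.6%), and in 41.1% of all 27025 genes with a window. The sterol regulatory element written TCACNCCAC occurred in 1 of the 23 (4.35%, Hmgcs1) and in 1.44% of all genes. The 4 genes with neither were Acaca, Acat2, Elovl6 and Scap, so both falling and rising genes lack the letters in these windows. Below are the 150 bases before each start, 5′ to 3′ on the strand of the gene, with either motif in capitals on whichever strand it lies (CCAAT reads ATTGG on the other strand, and in Fasn 2 copies overlap).
Hmgcs1: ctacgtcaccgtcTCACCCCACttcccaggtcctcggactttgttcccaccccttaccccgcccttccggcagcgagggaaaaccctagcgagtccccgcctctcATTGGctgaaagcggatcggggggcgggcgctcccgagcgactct
Mvd: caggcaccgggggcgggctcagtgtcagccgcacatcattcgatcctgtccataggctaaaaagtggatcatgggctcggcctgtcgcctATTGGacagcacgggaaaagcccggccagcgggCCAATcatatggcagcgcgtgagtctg
Pmvk: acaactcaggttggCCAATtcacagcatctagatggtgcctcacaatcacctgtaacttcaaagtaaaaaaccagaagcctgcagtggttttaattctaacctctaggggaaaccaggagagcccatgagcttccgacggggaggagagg
Ebp: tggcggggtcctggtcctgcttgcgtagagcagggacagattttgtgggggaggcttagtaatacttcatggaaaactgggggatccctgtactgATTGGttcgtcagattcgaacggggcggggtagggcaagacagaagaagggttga
Fasn: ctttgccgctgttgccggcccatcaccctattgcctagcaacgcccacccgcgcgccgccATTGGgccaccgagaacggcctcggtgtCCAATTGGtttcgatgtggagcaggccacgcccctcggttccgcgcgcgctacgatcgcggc
Scap: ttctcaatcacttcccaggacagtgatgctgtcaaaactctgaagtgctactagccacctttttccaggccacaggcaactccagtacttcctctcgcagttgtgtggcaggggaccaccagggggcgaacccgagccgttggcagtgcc
The stretches lie at chr13:119690201-119690350 (+ strand) for Hmgcs1, chr8:122443423-122443572 (- strand) for Mvd, chr3:89454391-89454540 (+) for Pmvk, chrX:8193513-8193662 (-) for Ebp, chr11:120824548-120824697 (-) for Fasn and chr9:110333138-110333287 (+) for Scap. None overlaps an exon in GENCODE. In Hmgcs1 the sterol element ends 129 bases before the start and the CCAAT box 41 bases before it. A match of letters describes the sequence and is not a measured site.

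RA on top of Dox was compared in OE_A2 at day 9 over the 25 genes with enough reads in either group, since Ebp, Mvd, Scd1 and Dhcr7 were too low in both. Elovl6, Scd2 and Pmvk fell and none rose, where 10.6% of 9121 genes tested fell and 4.28% rose. The count of falls lies close to the share of all genes that fell. Elovl6 went from 27.9 and 30.9 RPM with Dox to 2.89 and 9.57 RPM with DoxRA, a change of -2.25 (SE 0.30, adjusted p = 2.73e-09). Scd2 changed by -1.69 (SE 0.41, adjusted p = 0.00113) and Pmvk by -1.08 (SE 0.39, adjusted p = 0.0336), and Pmvk measured 21.9 and 30.9 RPM with Dox and 6.07 and 22.3 RPM with DoxRA, which overlapped. The median of the 25 genes was -0.08 (0.08 for all genes), and Srebf2 changed by -0.03 (SE 0.27, adjusted p = 0.955). No gene of the 29 passed when only these 4 libraries were fitted, and 1 passed without either library with Dox.

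The same transgene was induced with RA in OESko_A11, the Stra8 knockout. At day 9, 7 of the 28 genes tested fell and 2 rose against its own controls, where 6.56% of 9663 genes tested fell and 13.5% rose, and the medians were -0.70 for the members and 0.21 for all genes. With TMM scaling, which limits the weight of genes that take many reads in 1 group, 13 fell and 1 rose, the median of all genes moved by -0.25, and the share of rises among all genes past the threshold went from 67.2% to 44.6%. Srebf2 went from 155 and 147 RPM to 66.2 and 66.3 RPM (-1.17, SE 0.27, adjusted p = 0.000356). Mvd went from 50.8 and 54.4 RPM to 18.6 and 14.52 RPM (-1.62, SE 0.32, adjusted p = 4.61e-05), and Cyp51 from 89.6 and 71.4 RPM to 28.1 and 26.6 RPM (-1.51, SE 0.33, adjusted p = 0.000202). Hmgcs1 (-1.35), Dhcr7 (-1.13), Stard4 (-1.04) and Fasn (-1.01) fell too, and Scap (1.30) and Insig2 (1.14) rose. Of the stromal markers, 3 of 10 tested rose in this comparison, with sums of 1008 and 1008 RPM in controls and 1001 and 1275 RPM with DoxRA, and their part was not tested.

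The response to DoxRA differed between OESko_A11 and OE_A2 for 8 of the 29 genes when the difference itself was tested. Of these, 6 had a higher and 2 a lower value in OESko_A11 (14.8% and 5.24% of 10372 genes tested). With TMM scaling 5 members were higher and 2 lower, and the share of higher values over all genes went from 73.8% to 61.6%. The member counts are not far from the shares of all genes, and whether the 29 genes stand apart was not tested. Elovl6 had the largest difference, with 131 and 131 RPM in OESko_A11 controls and 118 and 90.0 RPM with DoxRA, and a difference of 3.59 (SE 0.43, adjusted p = 2.63e-10) between the responses. Scd2 (difference 3.00), Ebp (2.96), Mvd (1.82), Fdps (1.18) and Fdft1 (1.09) likewise fell less in the Stra8 knockout. Acat2 was at 55.5 and 62.6 RPM and 27.6 and 30.5 RPM there, while in OE_A2 it was at 50.2 and 55 RPM and 79.7 and 95.7 RPM, a difference of -1.72 (SE 0.32, adjusted p = 1.39e-05). Acaca had a smaller response, by a difference of -1.08 (SE 0.34, adjusted p = 0.013). For Hmgcs1 the difference was 0.70 (SE 0.54, adjusted p = 0.375), with an interval of -0.38 to 1.78, and for Srebf2 0.78 (SE 0.38, adjusted p = 0.127), with an interval of 0.03 to 1.54, and neither passed. Intervals here and below are 95% intervals of single genes, not adjusted for the number of genes. Of the stromal markers 4 of 11 tested had a higher response in OESko_A11. The 2 lines are single clones, and clone and genotype cannot be told apart.

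**Figure D2:**
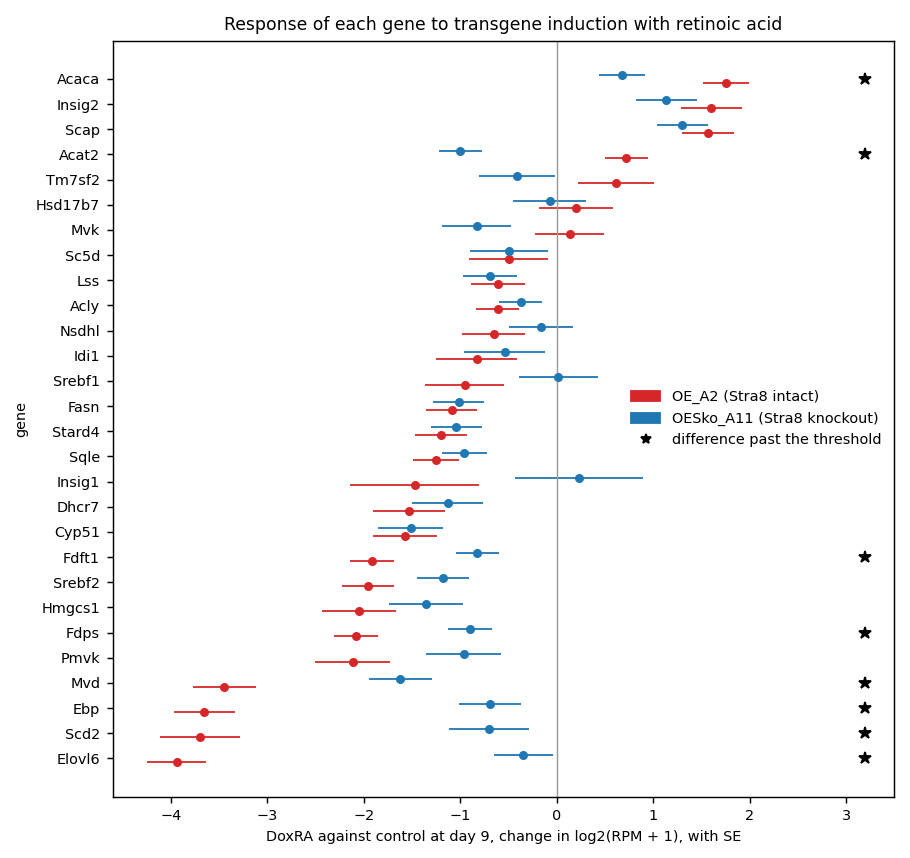
Change with DoxRA against control at day 9 in log2(RPM + 1) for each gene tested in both lines (rows), in OE_A2 (red) and OESko_A11 (blue), with standard errors as bars and a star where the difference passed the threshold. Elovl6, Scd2, Ebp and Mvd lie furthest left in OE_A2 and nearer to 0 in OESko_A11, while Acat2 falls on opposite sides of 0.

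Serum supplies cholesterol and lipids to cultured cells, and its removal was compared in OE_A2 as a mean over days 4, 5, 7 and 9. None of the 29 genes passed the threshold, and of all 9709 genes tested 0% rose and 0% fell by limma, as by edgeR, with 445 genes and 2 of the 29 at an unadjusted p under 0.05. The changes of the members ran from -0.28 (Insig2) to 0.42 (Tm7sf2), with a median of 0.11 beside 0.02 for all genes. The 95% interval for Hmgcs1 was -0.30 to 0.63 and for Srebf2 -0.19 to 0.47. For 27 of the 29 genes the interval lay within 1 on the log2 scale in either direction, and for Insig1 (-1.03 to 0.59) and Scd1 (-0.50 to 1.13) it reached beyond. The serum-free arm held 1 library per day. By day the median of the members was 0.323 at day 4, 0.098 at day 5, -0.062 at day 7 and 0.044 at day 9. The medians of all genes on these days were 0.167, 0.014, -0.085 and 0.034. Single days were not tested.

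SerumMinusWIN against control medium also moved none of the 29 past the threshold (0.244% of 9836 genes rose and 0.0508% fell), with changes from -0.40 to 0.46 and 1 member at an unadjusted p under 0.05 and none past the threshold by edgeR. The same held for WIN within serum-free medium (0% rose and 0% fell of 9671 genes, 650 genes and 2 members at an unadjusted p under 0.05, and no gene by edgeR). With BMS, 0.398% of 9797 genes rose and 0.725% fell (the share of rises went from 35.5% to 46% with TMM scaling), again with none of the 29 past both limits by limma or edgeR and 5 at an unadjusted p under 0.05. Here 3 members had an adjusted p under 0.05 but too small a change, and all were lower. They were Acaca (-0.62, SE 0.12, adjusted p = 0.00025), Insig2 (-0.61, SE 0.16, adjusted p = 0.0117) and Scap (-0.49, SE 0.13, adjusted p = 0.0165), and they are named here after their values were seen. This comparison shares the day 9 controls of OE_A2 with those above.

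Dox in serum-free medium with WIN lowered 7 of the 29 genes and raised 3 at day 9, where 9.71% of 9326 genes fell and 13.3% rose, with medians of -0.62 for the members and 0.01 for all genes. Scd2 went from 402 and 324 RPM to 182 and 83.6 RPM (-1.54, SE 0.41, adjusted p = 0.00195), and Fasn from 132 and 118 RPM to 48.8 and 37.2 RPM (-1.53, SE 0.26, adjusted p = 1.41e-06). Elovl6 (-1.53), Cyp51 (-1.50), Ebp (-1.43), Hmgcs1 (-1.06) and the lanosterol synthase Lss (-1.04) fell as well. Acaca rose from 56.2 and 44.4 RPM to 142 and 211 RPM (1.77, SE 0.24, adjusted p = 1.76e-09), Scap by 1.16 and Insig2 by 1.09. Srebf2 measured 81.3 and 106 RPM without Dox and 88.4 and 38.4 RPM with it, so that its groups overlapped, and its change of -0.66 (SE 0.27, adjusted p = 0.0442) was below the required size. Library 2 with Dox was the lower for 6 of the 7 genes that fell, with summed stromal markers of 1029 and 616 RPM in libraries 1 and 2, and without it 5 genes passed in place of 10.

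None of the 29 genes differed in its Dox response between this medium and control medium when the difference was tested by limma (0% of 9989 genes higher and 0.01% lower, 450 genes and 2 members at an unadjusted p under 0.05, none by edgeR). The difference for Hmgcs1 was 0.00 with an interval of -1.08 to 1.07, and for Srebf2 1.27 with an interval of 0.51 to 2.02. The adjusted p of Srebf2 was 0.579, and both intervals reach past 1 on the log2 scale. Without SerumMinusWINDox library 2, 1 of the 29 passed.

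With BMS present, Dox lowered Elovl6 and Cyp51 and raised Scap and Acaca (6.39% of 9279 genes fell and 14.8% rose). The median was -0.34 for the members and 0.23 for all genes. The count of falls lies close to the share of all genes that fell. Elovl6 went from 113 and 102 RPM to 65.2 and 29.3 RPM (-1.27, SE 0.30, adjusted p = 0.000605), and Cyp51 from 86.3 and 78.7 RPM to 44.8 and 33.1 RPM (-1.08, SE 0.33, adjusted p = 0.00787). Scap went from 43.1 and 27.6 RPM to 139 and 85.2 RPM (1.63, SE 0.27, adjusted p = 6.19e-07), and Acaca from 28.5 and 25.4 RPM to 67.4 and 60.6 RPM (1.22, SE 0.24, adjusted p = 2.79e-05). Scd2 measured 343 and 270.3 RPM and 376 and 227 RPM, a change of -0.06 (SE 0.41, adjusted p = 0.933). TMM scaling gave 6 falls and 1 rise, as did edgeR, moving the median of all genes by -0.28 and the share of rises among all genes past the threshold from 69.9% to 44.5%. Without BMSDox library 2, 2 genes passed in place of 4. None of 9 stromal markers tested passed, and the 1 gonadal soma marker tested rose by 2.22.

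Falls were also measured without a transgene. In H18 at day 9, adding RA to BMP2 lowered 10 of the 28 genes tested and raised none, where 6.98% of 9594 genes fell and 9.05% rose, and the medians were -0.63 for the members and 0.07 for all genes. Elovl6 went from 60.6 and 87 RPM with BMP2 to 15.6 and 19.9 RPM with B2RA (-1.98, SE 0.30, adjusted p = 2.63e-07). Mvd went from 24.4 and 31.3 RPM to 9.44 and 5.33 RPM (-1.81, SE 0.32, adjusted p = 8.42e-06), Idi1 from 94.4 and 159.7 RPM to 53.7 and 40.4 RPM (-1.38, SE 0.42, adjusted p = 0.01), and Srebf2 from 81.2 and 106 RPM to 32.9 and 44.6 RPM (-1.25, SE 0.27, adjusted p = 0.000177). No library overlapped in these 4 genes. The others that fell were Hmgcs1 (-1.23), Sqle (-1.10), Fasn (-1.08), Ebp (-1.08), Fdft1 (-1.02) and Fdps (-1.01).

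This count depended on single libraries, and those with BMP2 differed from each other. Hmgcs1 measured 117 and 254 RPM in BMP2 libraries 1 and 2, and Acaca 139 and 74.6 RPM. Without BMP2 library 2 the count was 2, without BMP2 library 1 it was 12, without B2RA library 2 it was 6, and 2 genes passed when only these 4 libraries were fitted. Of the stromal markers, 4 of 11 tested rose with B2RA, with sums of 535 and 1125 RPM with BMP2 and 1579 and 591 RPM with B2RA. Of the gonadal soma markers 2 of 2 tested rose, with sums of 19.6 and 17.3 RPM with BMP2 and 241 and 54.5 RPM with B2RA. The part of either list was not tested. No control library of H18 at day 9 was analysed here.

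In the Zglp1 knockout clones no member fell past the threshold with BMP2 or B2RA against control, or with RA added to BMP2. Few of all genes fell in these comparisons either (0.648%, 4.33% and 2.79%). A difference in the response to added RA between these clones and H18 was not tested. With BMP2, Lss rose from a mean of 24.4 ± 3.74 RPM (SD, n = 4 libraries of 2 clones) to 51.5 ± 16.3 RPM (SD, n = 4 libraries of 2 clones), a change of 1.01 (SE 0.20, adjusted p = 0.000398), and no other member passed (0.815% of 9565 genes rose and 0.648% fell). The median of the members was 0.37, with 28 of 29 changes above 0, beside 0.04 for all genes. Lss did not pass with TMM scaling, with a pseudocount of 5 RPM, or without Zko_E5 control library 1, Zko_E5 BMP2 library 1, Zko_G10 control library 2 or Zko_G10 BMP2 library 2. None of 13 stromal markers tested passed.

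With B2RA, 5 of the 29 genes rose in the Zko clones and none fell (6.63% of 9980 genes rose and 4.33% fell), and the medians were 0.40 for the members and 0.10 for all genes. Scd1 changed by 1.37 (SE 0.47, adjusted p = 0.0236), Srebf1 by 1.09 (SE 0.29, adjusted p = 0.00252), Pmvk by 1.06 (SE 0.28, adjusted p = 0.00221), Scd2 by 1.04 (SE 0.29, adjusted p = 0.00467) and Insig2 by 1.01 (SE 0.22, adjusted p = 0.000267). Pmvk measured 49, 37.8, 54.4 and 62 RPM in the 4 control libraries and 94.8, 99.4, 116 and 112 RPM with B2RA, with no overlap, whereas Scd1 and Srebf1 overlapped. Scd1 was the 1 gene that passed with TMM scaling, which moved the median of all genes by -0.16 and the share of rises from 60.5% to 43.7%, and none passed by edgeR. Without Zko_E5 control library 2, or without Zko_G10 control library 1, 2 passed, and without Zko_E5 B2RA library 2, or without Zko_G10 B2RA library 1, 3 passed. Of the stromal markers 1 of 12 tested fell, and of the gonadal soma markers 2 of 3 tested rose (median change 1.70). Their part was not tested. Hmgcs1 changed by 0.00 (SE 0.27, adjusted p = 0.995), with 167, 227, 177 and 195 RPM in controls and 209, 164, 217 and 174 RPM with B2RA. Adding RA to BMP2 moved none of the 29 in these clones by limma or edgeR, although 4.52% of 9874 genes rose and 2.79% fell, and 6 members had an unadjusted p under 0.05. Without Zko_E5 B2RA library 1, 3 passed, and without Zko_G10 BMP2 library 2, 2 passed. The share of rises there went from 61.9% to 42.5% with TMM scaling.

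In the Stra8 knockout clones B2RA raised 3 of the 29 genes and lowered none (15.7% of 10111 genes rose and 5.08% fell, a share of rises that went from 75.6% to 51.4% with TMM scaling), and the medians were -0.15 for the members and 0.23 for all genes. Scap measured 50.3, 38.2, 43.4 and 29.5 RPM in controls and 124, 118, 144 and 122 RPM with B2RA, a change of 1.65 (SE 0.19, adjusted p = 1.42e-12). Pmvk rose by 1.08 and Insig2 by 1.04. Mvd measured 76.2, 84.3, 70.8 and 76.7 RPM in controls and 45.5, 39.3, 50.9 and 27.6 RPM with B2RA, a change of -0.93 (SE 0.23, adjusted p = 0.000459) that was too small to pass. TMM scaling moved the median of all genes by -0.30 and gave 1 rise and 2 falls, as did edgeR. Of the stromal markers 1 of 13 tested rose and 1 fell, and of the gonadal soma markers 2 of 3 tested rose (median change 2.37). Their part was not tested.

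The B2RA responses of the Sko and Zko clones differed for 3 of the 29 genes (6.33% of 10648 genes higher and 1.71% lower in Sko, a share of higher values that went from 78.7% to 62.2% with TMM scaling). Scap rose more in Sko, by a difference of 1.12 (SE 0.27, adjusted p = 0.00213). Lss had a lower response (-1.21, SE 0.28, adjusted p = 0.00165), as did Acat2 (-1.02, SE 0.22, adjusted p = 0.00081). Without Sko_B6 control library 1 the count was 6, without Zko_E5 B2RA library 1 it was 5, and without library 2 of that group, or without Zko_G10 B2RA library 1, it was 1. With TMM scaling 4 genes were lower in Sko and none higher, and Scap did not pass.

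Set against H18 under B2RA at day 9, many of the genes were higher in both kinds of knockout. In the Zko clones 14 of the 29 genes were higher and 2 lower than in H18 (15.4% of 10246 genes higher and 21% lower), with medians of 1.04 for the members and -0.09 for all genes. In the Sko clones 9 were higher and 2 lower (11.3% of 10131 genes higher and 13.5% lower), with medians of 0.61 and -0.03. Both comparisons use the same 2 H18 libraries, which are also those with B2RA above.

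Elovl6 measured 15.6 and 19.9 RPM in H18, 142, 132, 139 and 119.8 RPM in the Zko clones and 86.4, 89.1, 101 and 98.2 RPM in the Sko clones. The differences from H18 were 2.84 (SE 0.26, adjusted p = 8.56e-17) for Zko and 2.34 (SE 0.26, adjusted p = 3.67e-12) for Sko. Srebf2 measured 32.9 and 44.6 RPM in H18, 165, 179.5, 196 and 156 RPM in Zko and 142, 116, 122 and 126 RPM in Sko, with differences of 2.15 (SE 0.23, adjusted p = 1.02e-13) and 1.69 (SE 0.23, adjusted p = 2.91e-09). No library of H18 reached the lowest knockout library for either gene.

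Mvd (2.81 in Zko and 2.33 in Sko), Pmvk (2.26 and 2.15), Fdft1 (1.57 and 1.51), Fdps (1.52 and 1.59), Dhcr7 (1.50 and 1.39) and Fasn (1.29 and 1.30) were higher in both. Acaca was lower in Zko, at 64.5, 72, 55.6 and 74.4 RPM against 179 and 172 RPM in H18 (-1.40, SE 0.21, adjusted p = 8.7e-09), and so was Scap (-1.19, SE 0.23, adjusted p = 6.16e-06). In Sko the lower genes were Insig2 (-1.09, SE 0.28, adjusted p = 0.000697) and Acat2 (-1.05, SE 0.19, adjusted p = 5.68e-06). Line and genotype cannot be told apart in these comparisons. The summed stromal markers ranged from 591 to 1579 RPM in H18, from 883 to 1363 RPM in Zko and from 676 to 1620 RPM in Sko, with 1 of 14 tested markers higher and 1 lower in each comparison. Of the gonadal soma markers 2 of 4 tested were lower in Zko and none of 3 passed in Sko, and the part of either list was not tested.

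**Figure D3:**
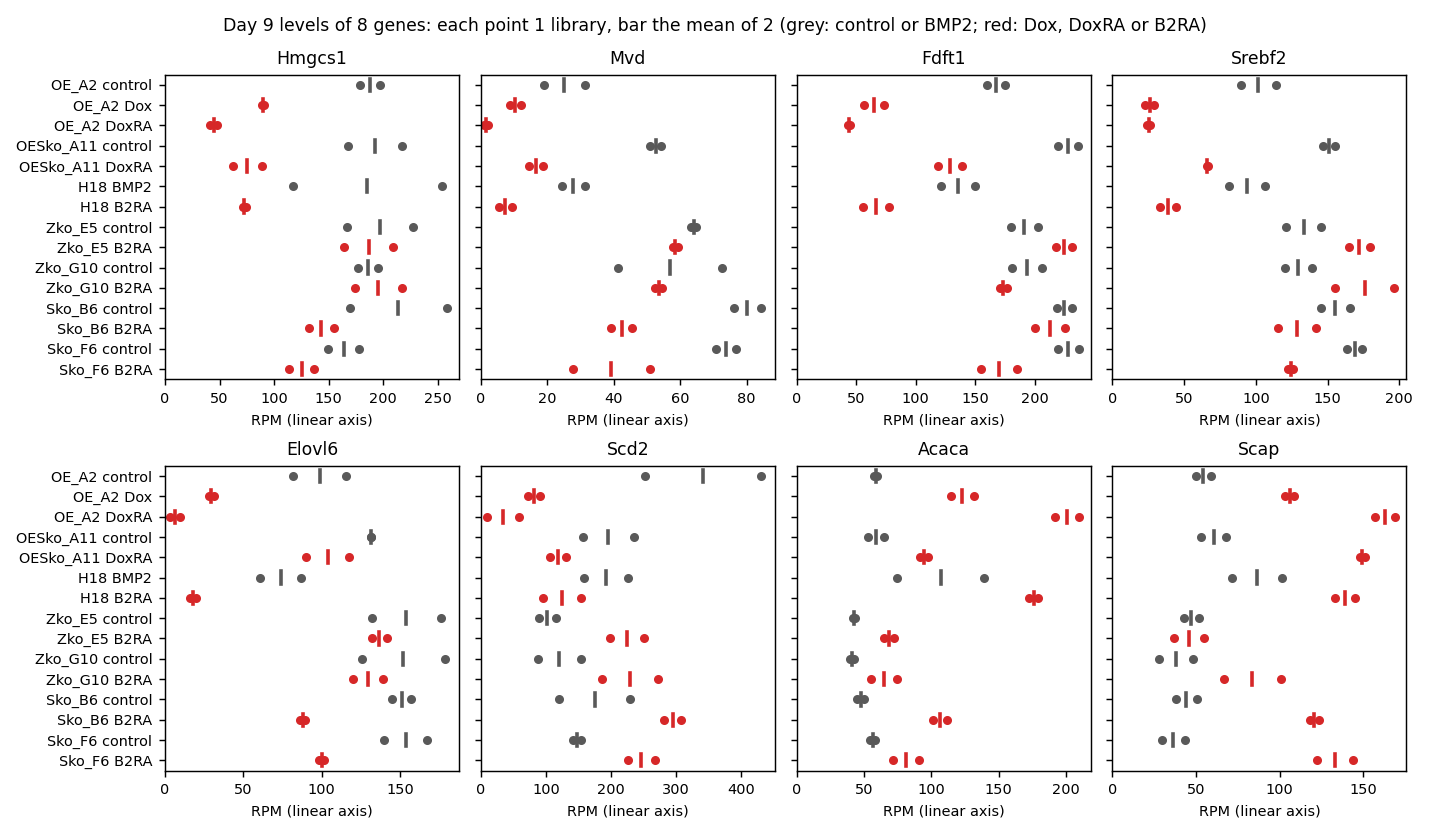
RPM of 8 genes at day 9 (horizontal axes, linear) in 15 groups (rows), each point 1 library and each bar the mean of 2, grey for control or BMP2 and red for Dox, DoxRA or B2RA. Hmgcs1, Mvd, Fdft1, Srebf2 and Elovl6 are low in OE_A2 with DoxRA and in H18 with B2RA, where Acaca and Scap are high.

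With the transgene induced, the medians below were lower at days 7 and 9 than at days 4 and 5. The 17 mevalonate and sterol enzymes summed to 1066 and 896 RPM in OE_A2 controls at day 4 and 1152 and 1157 RPM at day 9, and to 622 and 652 RPM with Dox and 469 and 503 RPM with DoxRA at day 9. At days 4, 5 and 7 the libraries of OE_A2 with Dox or DoxRA, apart from DoxRA library 2 of day 7, were made under another extraction protocol than their controls, so those values cannot be told apart from the protocol and are not compared. In the other media both arms shared a protocol. The median change of the members with Dox in SerumMinusWIN was 0.14 at day 4, 0.04 at day 5, -0.13 at day 7 and -0.62 at day 9, over 28 or 29 genes with enough reads. With BMS it was -0.01, -0.12, -0.46 and -0.34, and with DoxRA in OESko_A11 it was 0.06, 0.09, -0.27 and -0.70, over 25 to 28 genes. Medians of all genes stayed between -0.02 and 0.23 in these series. These medians over days are descriptions without a test.

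Elovl6 had a change below 0 from day 4 in both media, with -0.77 in SerumMinusWIN. With Dox in BMS its change was -1.18 at day 4, -1.34 at day 5, -1.67 at day 7 and -1.27 at day 9, when that of Srebf2 went from -0.04 at day 4 to -0.96 at day 9. Acaca, the gene that rose, changed by 0.14, 0.24, 0.63 and 1.22 over the same days. Between the Zko clones and H18 under B2RA the median of the members was 0.01 at day 4, 0.45 at day 5, 0.31 at day 7 and 1.04 at day 9, and H18 held 1 library at day 4.

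**Figure D4:**
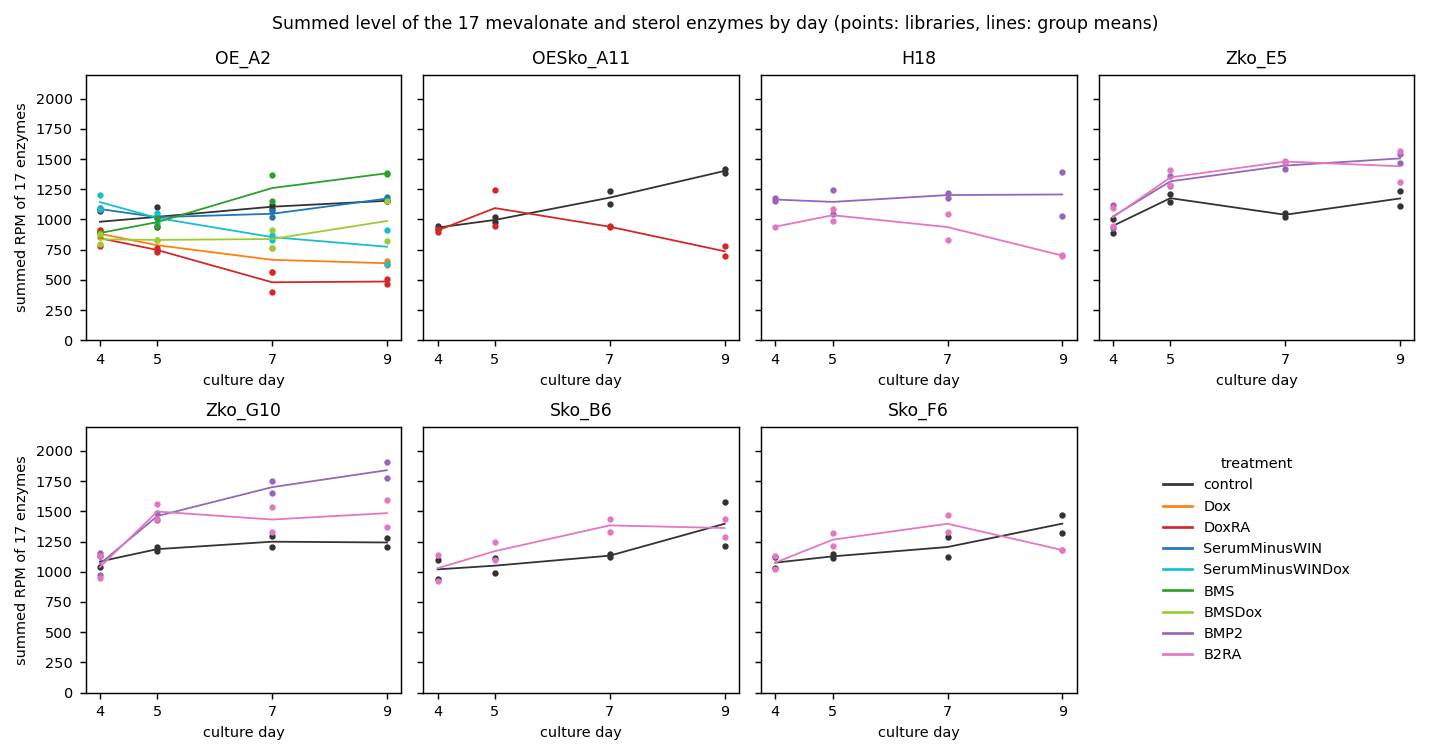
Summed RPM of the 17 mevalonate and sterol enzymes (vertical axis) by culture day (horizontal axis) in the 7 lines, with points for libraries and lines for group means. At days 4 to 7 the Dox and DoxRA libraries of OE_A2, apart from DoxRA library 2 of day 7, were made under another extraction protocol than its controls. At day 9 sums with Dox or DoxRA lie below controls in OE_A2 and OESko_A11, and the highest are those with BMP2 in Zko_G10, at 1776 and 1906 RPM.

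In untreated culture several of the genes rose with time. Between day 4 and day 9 of untreated culture in 6 clones, 5 of the 29 genes rose and none fell (9.26% of 10189 genes rose and 1.39% fell), with medians of 0.28 for the members and 0.07 for all genes. Insig1 rose by 1.64 (SE 0.27, adjusted p = 2.68e-07), Pmvk by 1.20 (SE 0.16, adjusted p = 3.14e-10), Cyp51 by 1.13 (SE 0.14, adjusted p = 8.15e-12), Scd2 by 1.05 (SE 0.17, adjusted p = 1.19e-07) and Acly, the ATP citrate lyase that supplies acetyl-CoA, by 1.08 (SE 0.09, adjusted p = 6.58e-19). The libraries of Cyp51 and Acly did not overlap between the days (n = 12 libraries each, 2 from each of 6 clones). No share of all genes without overlap is given here for comparison. The p-values measure the spread between libraries of a clone, not that between clones. Of the stromal markers 7 of 14 tested rose over the same days, as did 2 of 2 gonadal soma markers tested (median change 1.50), and their part was not tested. TMM scaling and edgeR each gave 3 rises, and the former moved the median of all genes by -0.12.

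Germ cells taken from embryos were measured in 1 library per stage, with no replicate check and no test. Counting differences of at least 1 on the log2 scale, 11 of 28 members with enough reads were lower and 3 higher at E14.5 than at E9.5, where 25% of 9237 genes were lower and 31.3% higher. At E15.5, 13 of 28 were lower and 3 higher (26.3% and 31.7% of 9269 genes). The median difference was -0.83 at E14.5 and -0.89 at E15.5, beside 0.17 for all genes at both stages, and both use the same E9.5 library. E9.5 cells also carried another reporter.

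Elovl6 measured 118 RPM at E9.5, 9.09 RPM at E14.5 and 1.07 RPM at E15.5. Ebp measured 33.5 RPM at E9.5, 2.73 RPM at E14.5 and 1.79 RPM at E15.5, and Mvd 36.1 RPM at E9.5, 1.82 RPM at E14.5 and 3.93 RPM at E15.5. Srebf2 measured 83.9 RPM at E9.5, 20 RPM at E14.5 and 18.9 RPM at E15.5. Hmgcs1 measured 106 RPM at E9.5, 30.3 RPM at E14.5 and 20.4 RPM at E15.5. All 5 were lower at the later stages. Among the higher genes Acaca had 27.3 RPM at E9.5, 202 RPM at E14.5 and 166 RPM at E15.5. Scap had 34.4 RPM at E9.5, 229 RPM at E14.5 and 217 RPM at E15.5, and Insig2 had 8.37 RPM at E9.5, 49.1 RPM at E14.5 and 53.6 RPM at E15.5. The 3 libraries held summed stromal markers of 869, 240 and 358 RPM, whose part was not tested.

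**Figure D5:**
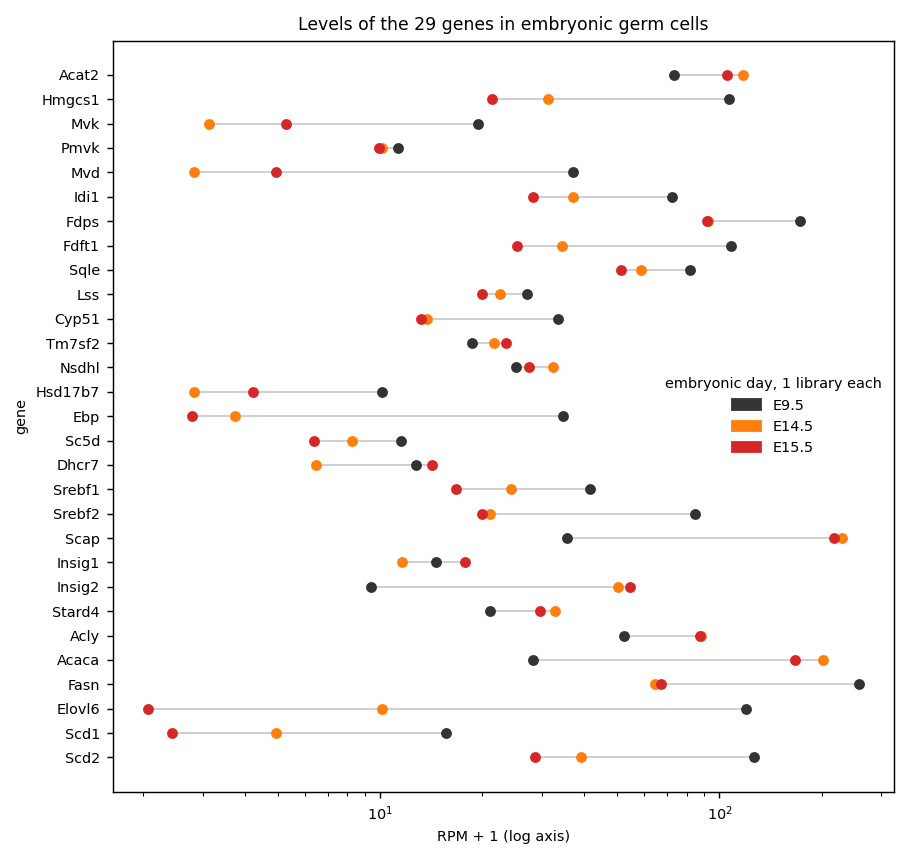
RPM + 1 (horizontal axis, logarithmic) of each of the 29 genes (rows) in embryonic germ cells at E9.5 (black), E14.5 (orange) and E15.5 (red), 1 library each. Acaca, Scap and Insig2 lie to the right at the later stages, while Elovl6, Ebp and Mvd lie to the left.

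Across the 18 comparisons that are not differences of responses, 5 of the 29 genes never passed the threshold. They were Mvk, Tm7sf2, Nsdhl, Hsd17b7 and Sc5d, the last 4 being sterol enzymes after lanosterol. Elovl6 was lower in 6 comparisons and higher in 2, and Hmgcs1, Cyp51 and Fasn were each lower in 5 and higher in 1, 2 and 2. Scap and Insig2 were each higher in 5 and lower in 1, and Acaca was higher in 4 and lower in 1. Several of these comparisons share libraries, so the counts are not independent. The matching counts over all genes were not made, so these counts do not set the 29 genes apart from others. Exons of 11 members overlap those of another annotated gene. On the opposite strand these include Fdft1 with Ctsb (774 bases), Cyp51 with Akap9 (166 bases) and Scap with 5830462I19Rik (985 bases). On the same strand they include Fdps with Gm43738 (1124 bases) and Tm7sf2 with Vps51 (532 bases). Whether reads were counted by strand is not given in the sources used here, so reads of such pairs may be mixed. Counting by strand would not separate pairs on the same strand.

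Other genes of the same pathways, 23 in a list kept apart from the members, moved in both directions. With Dox in OE_A2, 7 of 21 tested fell and 1 rose, where 9.38% of all genes tested fell and 13.4% rose. With DoxRA 11 of 21 fell and 2 rose, where 22.5% of all genes tested fell and 25.6% rose. The medians were -0.73 and -1.28, beside 0.06 and 0.11 for all genes. Acss2, which makes acetyl-CoA from acetate, rose from 35.8 and 31.3 RPM to 249.8 and 247 RPM with Dox and 496 and 446 RPM with DoxRA (3.77, SE 0.39, adjusted p = 4.39e-15).

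In H18, adding RA to BMP2 lowered 4 and raised 1 of 20 such genes, where 6.98% of all genes tested fell and 9.05% rose. Acss2 went from 177 and 34.4 RPM to 349 and 429.7 RPM (2.29, SE 0.39, adjusted p = 2.42e-06). Under B2RA the Zko clones were higher than H18 in 9 of 23 and lower in 1, where 15.4% of all genes tested were higher and 21% lower. Acss2 was at 42.4, 57.8, 36.5 and 32.3 RPM in Zko against 349 and 429.7 RPM in H18 (-3.20, SE 0.33, adjusted p = 2.14e-14). Serum removal moved none of the 23 past the threshold, as it moved 0% of all 9709 genes tested. In embryonic germ cells Acss2 measured 2.87 RPM at E9.5, 287 RPM at E14.5 and 340.2 RPM at E15.5.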

How the data were processed

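3′-end RNA-seq libraries were made from cells sorted by reporter. The authors deposited 1 table of RPM values, scaled to the reads of endogenous genes. Transgene rows lie on top, so that some deposited columns exceed the usual RPM total and were handled as a signal. Tools named per the submitters' processing notes are HTSeq 0.9.1, TopHat2 2.1.0, SAMtools 1.3, cutadapt 1.9.1 and Bowtie 1.1.2, with the build mm10, and their roles are not given in the sources used here. Of 195 columns, 194 matched a label and 1 was not used. 3 lines with an extra empty cell were realigned. Values were whole multiples of 1 read in each library (within 0.05 of a read, lowest share 100%), which gave the depths and reads for an edgeR alternative.

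log2(RPM + 1) was fitted with limma 3.58.1 (R 4.3.3, trended and robust) over all genes with 10 RPM in 2 of the libraries compared, with all PGCLC groups sharing 1 estimate of spread. Adjusted p-values are Benjamini-Hochberg over all genes tested. The procedure was tested on simulated data. Single libraries at 0 allow up to 3 reads, and this covers counting error only. The members, lists and tests were chosen with earlier results of these data known. Full values go mainly to large rises and falls past the threshold in a comparison and to Srebf1, Srebf2, Insig1, Scd1, Scd2 and Stard4. This choice was not kept in every comparison, and some of the largest changes are given without levels or SE. Any other gene given in full was chosen after its values were seen. Alternatives were other pseudocounts (0.5 and 5), no filter, TMM factors, edgeR 4.0.16 on the reads, a replicate block, only the groups compared, and each library left out. With Dox in OE_A2 at day 9 the median change of all genes was 0.061, against 0.022 with TMM factors and 0.018 by edgeR. With DoxRA it was 0.108, against 0.007 and 0.04. TMM factors and edgeR thus both lowered these medians, and they are not shown to be independent checks. A fit with the 172 libraries of 1 extraction protocol was added after seeing the data. Some genes of the other lists are not reported here.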

Additional observations from a re-analysis of the deposited data

Results flagged for a closer look

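For 8 genes the response to DoxRA at day 9 differed between OESko_A11 and OE_A2 by limma's test of the difference (OESko_A11 minus OE_A2, log2 scale, 2 libraries in each of 4 groups). Of the 29 genes 6 were higher and 2 lower, where 14.8% of 10372 genes tested were higher and 5.24% lower. Whether the 29 genes stand apart from all genes here was not tested. The differences were 3.59 for Elovl6, 3.00 for Scd2, 2.96 for Ebp, 1.82 for Mvd, 1.18 for Fdps and 1.09 for Fdft1, and -1.72 for Acat2 and -1.08 for Acaca. The adjusted p ran from 2.63e-10 for Elovl6 to 0.013 for Acaca. The response to B2RA differed between the Sko and Zko clones (Sko minus Zko, 2 libraries of each of 2 clones in each of 4 arms) by -1.21 for Lss, 1.12 for Scap and -1.02 for Acat2, with adjusted p of 0.00165, 0.00213 and 0.00081. Of all 10648 genes tested 6.33% were higher and 1.71% lower, and with TMM scaling Scap did not pass. Acat2 had a lower response in the Stra8 knockout lines in both comparisons, which share no library. The first is against a Stra8-intact line with DoxRA, the second against Zglp1 knockout clones with B2RA, so the 2 differences are not alike. Clone and genotype cannot be told apart in the first. In the second, p-values measure only the spread between libraries of a clone, not that between clones.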

How the results depend on the processing

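Counts below are of the 29 genes past the threshold. RA added to Dox gave 3, but 5 without a filter and 0 with only the groups compared. Dox with BMS gave 4, but 7 with TMM factors and 7 by edgeR. In Zko, BMP2 gave 1, but 0 with a pseudocount of 5 and 0 with TMM factors, and B2RA gave 5, but 1 with TMM factors and 0 by edgeR. RA added to BMP2 in H18 gave 10, but 2 with only the groups compared. DoxRA in OESko_A11 gave 9, but 14 with TMM factors. Untreated day 9 against day 4 gave 5, but 3 with TMM factors and 3 by edgeR. The causes were not tested. Leaving out single libraries gave 8 to 10 for Dox (14), 13 to 18 for DoxRA (19), 1 to 3 for RA added to Dox, 5 to 13 for Dox with SerumMinusWIN (10), 2 to 6 for Dox with BMS, 0 to 1 for BMP2 in Zko, 2 to 6 for B2RA in Zko, 0 to 3 for RA added in Zko (0), 2 to 12 for RA added in H18, 2 to 4 for B2RA in Sko (3), 7 to 10 for DoxRA in OESko_A11, 4 to 5 for untreated culture, 7 to 9 for the DoxRA difference (8), 1 to 6 for the B2RA difference (3), 0 to 1 for the SerumMinusWIN difference (0), 14 to 17 for Zko minus H18 (16) and 10 to 13 for Sko minus H18 (11).

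Of 1694 alternative values of the 121 gene results past the threshold, 1502 passed again in the same direction, 191 did not pass, and Insig1 with DoxRA in OE_A2 (-1.47) ranged from -2.96 to 0.017 with single libraries left out, reversing without DoxRA library 2. Same-numbered libraries of 14 of 26 pairs of groups deviated together, with correlations of deviations over 0.1 (range -0.129 to 0.443, SerumMinusWIN and BMS against control over 0.1 at days 4, 5 and 9). Since this did not hold for every pair and the labels state no shared source, they were not treated as paired, and with the replicate block 120 of the 121 passed again. Over all genes, counts moved by over 1.5 times without a filter for DoxRA (4584 to 6980), RA added to Dox (1355 to 2591), SerumMinusWIN (29 to 52), BMS (110 to 201), Dox with BMS (1969 to 3134), BMP2 in Zko (140 to 511), B2RA in Zko (1094 to 1976), RA added in Zko (721 to 1296) and H18 (1538 to 2377), B2RA in Sko (2103 to 3370), DoxRA in OESko_A11 (1935 to 3227), untreated culture (1085 to 1745) and the SerumMinusWIN difference (1 to 99). With only the groups compared they went to 514 for RA added to Dox, 3 for SerumMinusWIN, 314 and 409 for RA added in Zko and H18, 1281 for the DoxRA difference and 304 for the B2RA difference, with a pseudocount of 5 to 29 for BMS, 644 for B2RA in Zko and 510 for untreated culture, and by edgeR to 78 for BMP2 in Zko. For serum removal and WIN, both 0, the replicate block gave 6 and 40. With single libraries left out, all-gene counts ranged from 1374 to 1706 for Dox (2139), 568 to 1493 for RA added to Dox, 8 to 37 for SerumMinusWIN, 1130 to 2263 for Dox with SerumMinusWIN (2150), 1109 to 1896 for Dox with BMS, 74 to 191 for BMP2 in Zko, 489 to 1204 and 304 to 2094 for RA added in Zko and H18, 946 to 1518 for DoxRA in OESko_A11, 476 to 1482 for the B2RA difference (856), 0 to 47 for the SerumMinusWIN difference, 0 to 1 for serum removal and 0 to 3 for WIN. Genes near 1 RPM are limited by depth, since 1 read was worth 0.192 to 1.14 RPM.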

Other observations

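Genes of sterol efflux and storage, 7 in a list kept apart from the members, moved in both directions with the transgene. In OE_A2 at day 9, 2 of 6 tested rose and 2 fell with Dox, where 13.4% of all genes tested rose and 9.38% fell. With DoxRA 2 of 5 rose and 2 fell against the same controls, where 25.6% of all genes tested rose and 22.5% fell. Abca1, which exports cholesterol, measured 6.54 and 9.34 RPM in controls, 57.2 and 46.1 RPM with Dox and 72.5 and 86.9 RPM with DoxRA. Its change with DoxRA was 3.19 (SE 0.67, adjusted p = 2.38e-05). Apoe, which carries lipids outside cells, measured 136 and 154 RPM in controls, 29.7 and 31.6 RPM with Dox and 13 and 12.8 RPM with DoxRA, a change of -3.39 (SE 0.36, adjusted p = 5.2e-14). Soat1, which stores cholesterol as esters, changed by -2.69 (SE 0.31, adjusted p = 1.28e-12), and Mylip, a ubiquitin ligase, by 2.29 (SE 0.44, adjusted p = 3.91e-06). Under B2RA the Zko clones differed from H18 by -3.89 (SE 0.58, adjusted p = 1.3e-08) for Abca1 and 1.97 (SE 0.31, adjusted p = 7.2e-08) for Apoe, with 2 of 6 tested genes higher and 2 lower (15.4% and 21% of all genes tested).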
